A study of Homo sapiens with 10 samples.

Results

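Histone genes were described in wild-type (WT) and ZNF274 knockout (KO) cells. They were taken as every protein-coding gene whose current symbol names a replication-dependent or variant H1, H2A, H2B, H3 or H4 histone. Of the annotated genes that meet this rule 83 are reported here, of which 40 were matched to identifiers in the count tables, out of 24050 genes listed in either table. All 40 stood in the HEK293T table and 31 of them also in the table of neural progenitor cells (NPCs). The other 43 were not matched and are not analysed here, which does not show that they are not expressed. Of 62 annotated replication-dependent genes 29 were matched, so totals, shares and rankings of that kind cover matched genes only. RNA sequencing compared 3 WT libraries (S15, S16, S17) with 3 ZNF274 KO libraries (S18, S19, S20) of HEK293T, a human embryonic kidney line, and 2 WT libraries (S3, S5) with 2 ZNF274 KO libraries (S1, S2) of NPCs. ZNF274 is a zinc finger protein with a KRAB domain. The deletion was made with Cas9 and a pair of guides flanking the gene, followed by single-cell sorting of HEK293T or picking of H1 embryonic stem cell colonies. The NPCs were then derived from the stem cells through embryoid bodies with the STEMdiff system. The labels do not say which clone each library came from, nor that libraries of a group were separate cultures, so p-values measure the spread between these libraries, which may be technical. The study describes its NPC expression values as an average over a pair of parental cell lines, which the labels do not tie to libraries.

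Histone genes fall into 2 kinds that a poly(A)-selected library treats differently. The replication-dependent genes lie mostly in clusters on chromosomes 6 and 1, lack introns, are transcribed in S phase when DNA is copied, and make mRNAs that end in a conserved stem-loop in place of a poly(A) tail. The stem-loop is bound by SLBP, and NPAT is the coactivator of these genes at S phase entry. Variant histones such as H3.3, H2A.Z and macroH2A are encoded by single dispersed genes, are made throughout the cell cycle and carry poly(A) tails. Some replication-dependent genes also make a polyadenylated transcript, in particular in differentiated cells.

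The 40 genes comprised 29 replication-dependent genes, 10 polyadenylated variants (H1-10, H2AJ, H2AX, H2AZ1, H2AZ2, MACROH2A1, MACROH2A2, H3-3A, H3-3B and H3-5) and H2BW2, a germline variant with 2 counts in KO HEK293T S18 and none elsewhere in that table. H2AX is placed with the variants although its gene makes both kinds of end. Of the 29, 4 encode H1, 7 H2A, 9 H2B, 4 H3 and 5 H4, and 6 (H1-2, H2AC6, H2BC4, H2BC5, H2BC12 and H2BC21) were listed as also polyadenylated. All 29 had 1 exon in the canonical transcript, against 4 of the 10 variants. On the reference genome of the files' build (hg19, GRCh37), the motif GGNNCTTTTCAGNGCC was searched in the 150 bases after the stop codon. It was found in 51 of 20015 protein-coding genes (0.255%), all among the 83 annotated histone genes. It was present in 20 of the 23 replication-dependent genes not listed as polyadenylated, in 3 of the 6 listed as such, in 0 of the 10 variants, and on the other strand in no gene. The search took 1 fixed form, so a gene without a match, such as H2AX, is not shown to lack a stem-loop. The following 3' ends show the forms met, with the 16-base stem-loop in capitals and the coordinates of those 16 bases on hg19:
H1-2, stem-loop at chr6:26055972-26055987 (-): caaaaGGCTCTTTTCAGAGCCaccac
H1-4, stem-loop at chr6:26157323-26157338 (+): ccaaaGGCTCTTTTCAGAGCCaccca
H2AC6, stem-loop at chr6:26124897-26124912 (+): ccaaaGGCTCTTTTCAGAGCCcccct
H2AC25, stem-loop at chr1:228645070-228645085 (-): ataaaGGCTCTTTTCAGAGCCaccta
H2BC21, stem-loop at chr1:149857738-149857753 (-): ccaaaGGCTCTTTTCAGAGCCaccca
H3C12, stem-loop at chr6:27858098-27858113 (-): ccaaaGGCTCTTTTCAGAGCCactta
H2AC11, stem-loop at chr6:27101294-27101309 (+): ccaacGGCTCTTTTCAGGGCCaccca
H4C2, stem-loop at chr6:26027129-26027144 (-): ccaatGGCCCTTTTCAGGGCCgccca
H4C3, stem-loop at chr6:26104545-26104560 (+): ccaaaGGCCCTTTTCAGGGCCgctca
H4C11, stem-loop at chr6:27792237-27792252 (+): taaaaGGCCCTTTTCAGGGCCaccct

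The first base of the stem-loop lay 23 to 68 bases after the stop codon. The form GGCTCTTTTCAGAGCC was carried by 17 of 23 genes, of all classes but H4. All 5 H4 genes carried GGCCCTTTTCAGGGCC, and H2AC11 alone carried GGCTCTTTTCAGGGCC. The variants end differently. The poly(A) signal AATAAA was found in the last 50 bases of the canonical transcript in 5 of 10 variants and in 62.9% of protein-coding genes with such a transcript (12695 of 20175), against 1 of 23 and 1 of 6 in the replication-dependent classes. It was also searched on the other strand, where 7.51% of genes had it. The signal is in capitals in these 26-base windows (hg19) of the 5 variants that carry it and of H2BC21, which has both kinds of end:
H1-10, chr3:129033618-129033643 (-): ttgggcacAATAAAgcgtttaaacct
H2AJ, chr12:14927931-14927956 (+): cgggagccAATAAAgttggtgaaaat
MACROH2A2, chr10:71872001-71872026 (+): aggaaaaaAATAAAagatccagtgtc
H3-3B, chr17:73772517-73772542 (-): gagactaaAATAAAatttttgaagtt
H2AZ1, chr4:100869247-100869272 (-): ataagttcAATAAAggtcatatccca
H2BC21, chr1:149856015-149856040 (-): ttgttattAATAAAgttaccaattaa

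Promoters of the histone classes were compared with all 27305 promoters of a RefSeq table (GRCh38.p14, 300 bases, 250 before to 50 after the start), in which 37 of the 40 genes were matched. The sequence CCAAT on either strand was in all 4 H1, 15 H2A, 15 H2B and 11 H3 promoters of annotated replication-dependent genes, in 2 of 12 H4 promoters and in 35.6% of all promoters. The octamer ATTTGCAT was in 10 of 15 H2A and 11 of 15 H2B promoters, against 1.82% of all promoters. The element AAACACA, known from H1 promoters, was in 4 of 4 H1 promoters and in 5.78% of all. TATAAA was in 64.9% of the 37 promoters and in 12.1% of all. TATAAA and its other-strand form TTTATA overlap where both occur in TTTATAAA. The promoters of the most abundant replication-dependent H2B and H1 genes are given, with all 4 motifs in capitals on either strand:
H2BC12 promoter, chr6:27146806-27147105 (-): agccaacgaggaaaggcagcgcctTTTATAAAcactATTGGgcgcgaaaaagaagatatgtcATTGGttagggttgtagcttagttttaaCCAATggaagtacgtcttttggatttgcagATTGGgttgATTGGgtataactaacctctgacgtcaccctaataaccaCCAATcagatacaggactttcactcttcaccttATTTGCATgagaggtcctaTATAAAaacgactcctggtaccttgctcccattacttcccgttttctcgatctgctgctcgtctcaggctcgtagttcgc
H1-2 promoter, chr6:26056421-26056720 (-): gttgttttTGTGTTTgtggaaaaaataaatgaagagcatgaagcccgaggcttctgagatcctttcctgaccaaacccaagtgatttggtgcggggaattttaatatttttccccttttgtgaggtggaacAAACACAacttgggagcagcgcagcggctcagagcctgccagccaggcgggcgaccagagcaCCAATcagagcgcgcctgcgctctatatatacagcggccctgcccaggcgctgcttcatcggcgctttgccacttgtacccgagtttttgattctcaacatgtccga

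Libraries held 18621266 to 32285876 counts, and a floor of 3 counts corresponded to 0.0921 to 0.154 CPM (counts divided by library size and scaled by the trimmed mean of M-values, TMM). ZNF274 had 423 to 496 counts in every WT library and 0 in every KO library, which at 3 counts allows up to 0.148 CPM. One HEK293T library stood apart before any comparison. KO S18 had 1189 CPM over 17 listed RNAs that carry no poly(A) tail, such as RN7SK, RN7SL2 and SNORD3A, against 26.5 to 122 CPM in the other 5. RN7SK, a small nuclear RNA that controls elongation by RNA polymerase II, had 767 CPM in S18 and 8.78 to 51.0 in the others. The HEK293T comparisons of the histone classes and of the genes described are therefore given with S18 and, as fold changes, without it. NPC libraries had 5.54 to 11.98 CPM over the 11 such RNAs listed there. The NPC identity was checked with 12 neural progenitor markers, of which 9 were called higher and 2 lower in WT NPCs than in WT HEK293T. In the same comparison 9 of 11 mesenchymal markers were called higher and 1 lower, and 3 of 3 pluripotency markers higher. Of all genes tested there, 25.2% were called higher and 15.5% lower.

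Among the matched genes, the variants carried nearly all the histone reads. The 10 variants reported were all matched, but of 62 annotated replication-dependent genes only 29 were in HEK293T and 21 in NPCs. The sums and shares leave out the rest, so they do not split all histone reads. In HEK293T the 10 variants summed to 2978, 3173 and 3156 CPM in WT S15, S16 and S17 and to 2804, 2929 and 2915 CPM in KO S18, S19 and S20. The replication-dependent genes summed to 82.2, 58.7 and 70.4 CPM in WT and to 393, 117 and 72.5 CPM in KO. S18 thus stood above all others, S19 was next, and S20 lay within the WT range. In NPCs the variants summed to 2797 and 2553 CPM in WT and to 2125 and 2266 CPM in KO, and the replication-dependent genes to 30.3 and 41.5 CPM in WT and to 27.2 and 24.0 CPM in KO. Both sums were lower in both KO libraries than in either WT library.

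**Figure D1:**
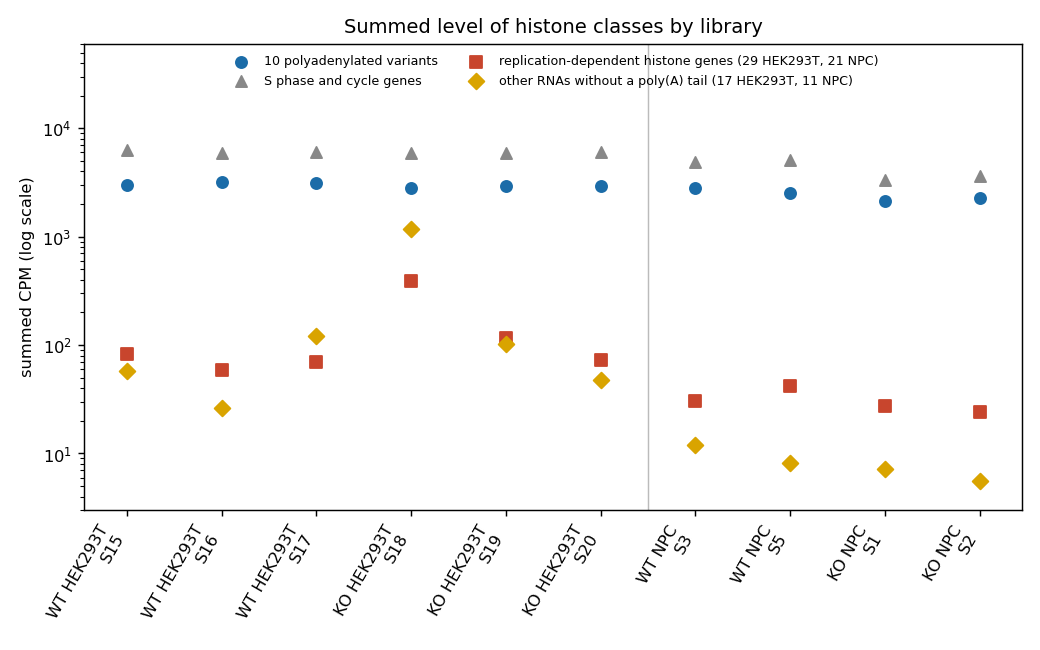
Summed CPM (log scale) in each of the 10 libraries for the 10 polyadenylated variants, the replication-dependent genes, other RNAs without a poly(A) tail, and S phase and cycle genes. In KO HEK293T S18 the replication-dependent genes reach 393 CPM and the other untailed RNAs 1189 CPM, while the variants stay at 2804 CPM.

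As a share of the counts of matched histone genes, replication-dependent genes made up 2.68%, 1.82% and 2.18% in WT HEK293T and 12.3% (95% Wilson interval 12.05 to 12.52%), 3.85% and 2.43% in KO. In NPCs the share was 1.07% and 1.60% in WT and 1.265% and 1.05% in KO. These intervals cover counting error only. Per kb of exonic length, which sets short and long transcripts on 1 scale, the share was 12.3%, 8.41% and 10.7% in WT HEK293T (10.5% ± 1.98, SD, n = 3) and 42.3%, 16.8% and 11.3% in KO (23.5% ± 16.5, SD, n = 3). In NPCs it was 4.62% and 6.65% in WT (5.63% ± 1.44, SD, n = 2) and 5.16% and 4.285% in KO (4.72% ± 0.62, SD, n = 2). The WT and KO values overlapped in both cell types. Without the 6 genes also polyadenylated, the share per kb was 2.72%, 1.60% and 3.14% in WT HEK293T and 19.04%, 4.33% and 2.32% in KO, which overlap. In NPCs it was 1.59% and 2.355% in WT and 1.06% and 0.79% in KO, which do not.

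Levels of the variants per kb spanned a wide range in WT HEK293T. H2AZ1, which replaces H2A at promoters, was highest at 437 ± 48.9 CPM per kb (SD, n = 3), followed by H3-3B at 150 ± 9.83 and H1-10 at 109 ± 15.2. H3-3A (87.0 ± 7.38), which encodes the same H3.3 protein as H3-3B, and H2AX (79.8 ± 19.5), phosphorylated at DNA breaks, differed by less than their SD. MACROH2A1 (19.9 ± 0.53) and H2AZ2 (18.8 ± 0.10) were next. MACROH2A2 (5.63 ± 0.21), H3-5 (5.17 ± 0.98) and H2AJ (2.45 ± 0.70) were lowest, and the first 2 of these differed by less than the SD of H3-5. Exonic length here is the union of all annotated exons, which is long for the macroH2A genes. In WT NPCs the order was led by H2AZ1 (329 ± 63.2, SD, n = 2), H1-10 (128 ± 6.86) and H2AX (90.7 ± 9.12). H2AX differed from H3-3B (82.8 ± 2.21) by less than its SD, and H3-3B from H3-3A (81.3 ± 2.46) by less than either SD. Among replication-dependent genes, H2BC12 was highest in both cell types, at 65.1 ± 13.9 CPM per kb in WT HEK293T and 16 ± 3.84 in WT NPCs.

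Comparison of KO with WT HEK293T called no histone gene: 0 of 38 tested passed an adjusted p of 0.05 and a fold change above 2 (edgeR quasi-likelihood test, Benjamini-Hochberg over all genes), where 0.489% of the 19018 genes tested were called, 0.478% higher and 0.0105% lower. At an unadjusted p below 0.05 there were 19 of 38, against 7.12% of all genes, with 3 of the 38 called higher by DESeq2 (0.805% of all genes) and 0 by voom and limma (0.410%). Without S18 none of the 38 was called (0.559% of all genes) and 4 had an unadjusted p below 0.05 (6.24% of all genes). The 28 replication-dependent genes tested all had a log2 fold change above 0, with a median of 1.79 and a range of 0.11 to 3.16, where 51.4% of all genes were above 0 and the median of all was 0.01. The 10 variants had a median of -0.09 and a range of -0.27 to 0.16.

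S18 was the highest of the 6 HEK293T libraries in 28 of 28 replication-dependent genes, in 4 of 10 variants and in 28.2% of all genes. For the 24 replication-dependent genes whose median over the other 5 libraries was above the floor of 3 counts, S18 was 6.80 times that median (range 1.87 to 20.01). The ratio had a median of 7.498 for the 18 genes not listed as polyadenylated and 5.40 for the 6 that are. It was 0.979 for the 10 variants (range 0.713 to 1.93, highest in H2AJ) and 0.988 for all genes above the floor. Genes with a match to the stem-loop motif had a median ratio of 7.89 (n = 19, range 1.87 to 20.01). Those without a match had 5.61 (n = 5, range 4.02 to 6.90), and the ranges overlap. Of those without, H2BC4, H2BC5 and H2BC12 are also polyadenylated, so this split is not separate from the one above. The low end among motif carriers was H2AC25 at 1.87, below the variant H2AJ. The 30 S phase and cycle genes summed to 5941 CPM in S18 and to 5894 to 6275 CPM in the other 5, and none was called in HEK293T. Whether RNA without a poly(A) tail, present in S18 at a higher level, has a part in these values was not tested.

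H2BC12, the most abundant replication-dependent gene, had 39.7, 26.2 and 30.7 CPM in WT and 129, 47.7 and 32.1 CPM in KO HEK293T, so S20 lay within the WT range (log2 fold change 1.11, and 0.31 without S18). H1-2, the linker histone H1.2, had 7.88, 7.67 and 8.06 CPM in WT and 65.8, 15.4 and 10.1 CPM in KO, with no overlap. H1-2 had a log2 fold change of 1.95 (SE 0.555, adjusted p = 0.353 in edgeR's test) and 0.70 without S18. The gene thus kept its direction in the other pair of KO libraries but did not pass. H1-4 had 1.80, 0.619 and 3.46 CPM in WT and 27.5, 3.75 and 1.27 CPM in KO, which overlap (2.45, and 0.36 without S18).

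H2AC6 had 3.27, 2.10 and 2.10 CPM in WT and 15.4, 7.06 and 3.70 CPM in KO. H2BC21 had 1.37, 1.89 and 1.69 CPM in WT and 9.83, 4.45 and 2.99 CPM in KO. In both genes every KO library lay above every WT library, and both are also polyadenylated. Their log2 fold changes were 1.80 (SE 0.453, adjusted p = 0.214) and 1.79 (SE 0.419, adjusted p = 0.160), and 1.11 and 1.17 without S18. Both were called by DESeq2, as was H4C8, whose log2 fold change in edgeR's fit was 3.15 and 1.23 without S18. Groups did not overlap, with KO above, in 5 of 28 replication-dependent genes (17.9%) against 7.16% of all genes. These were H1-2, H2AC6, H2AC11 (log2 fold change 2.36, and 1.07 without S18), H2BC15 (1.73 and 0.65) and H2BC21, and among the 10 variants the same held for H2AZ2. The same 6 genes had S19 and S20 above every WT library, where 11.9% of all genes did.

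H2BC5 had 5.34, 4.54 and 4.10 CPM in WT and 26.8, 9.34 and 4.78 in KO. H2BC4, which overlaps H4C3 on the other strand, had 1.07, 0.654 and 1.05 CPM in WT and 7.03, 1.51 and 0.934 in KO. In both, S20 lay within the WT range, and their log2 fold changes of 1.54 and 1.75 became 0.60 and 0.40 without S18. H2AC25, an H2A gene outside the large clusters on chromosome 1, had 10.1, 6.33 and 3.79 CPM in WT and 11.1, 5.90 and 5.01 in KO, and H4C3 had 1.24, 0.688 and 2.13 in WT and 9.74, 1.47 and 1.05 in KO. Without S18 both turned from a positive to a negative log2 fold change, H2AC25 from 0.11 to -0.31 and H4C3 from 1.58 to -0.10.
H4C2 rested on 4, 1 and 17 counts in WT and 137, 18 and 8 in KO. H3C14 (6, 0 and 4 against 26, 18 and 1 counts) and H3C12 (7, 7 and 9 against 26, 5 and 3 counts) were the most abundant replication-dependent H3 genes listed. In these 3 genes the WT and KO libraries overlapped, and without S18 the log2 fold change went from 3.16 to 0.78 for H4C2, from 2.29 to 1.40 for H3C14 and from 0.79 to -0.94 for H3C12. The 2 H3 genes share 99.1% and 38.3% of their 75-base windows with other annotated genes of histone symbols, and H2BC12 shares 39.0%. Sharing with the rest of the genome was not searched. Of the 29 genes 7 share more than 30%, and since reads mapping to several places were not counted, the counts of these genes are uncertain.

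**Figure D2:**
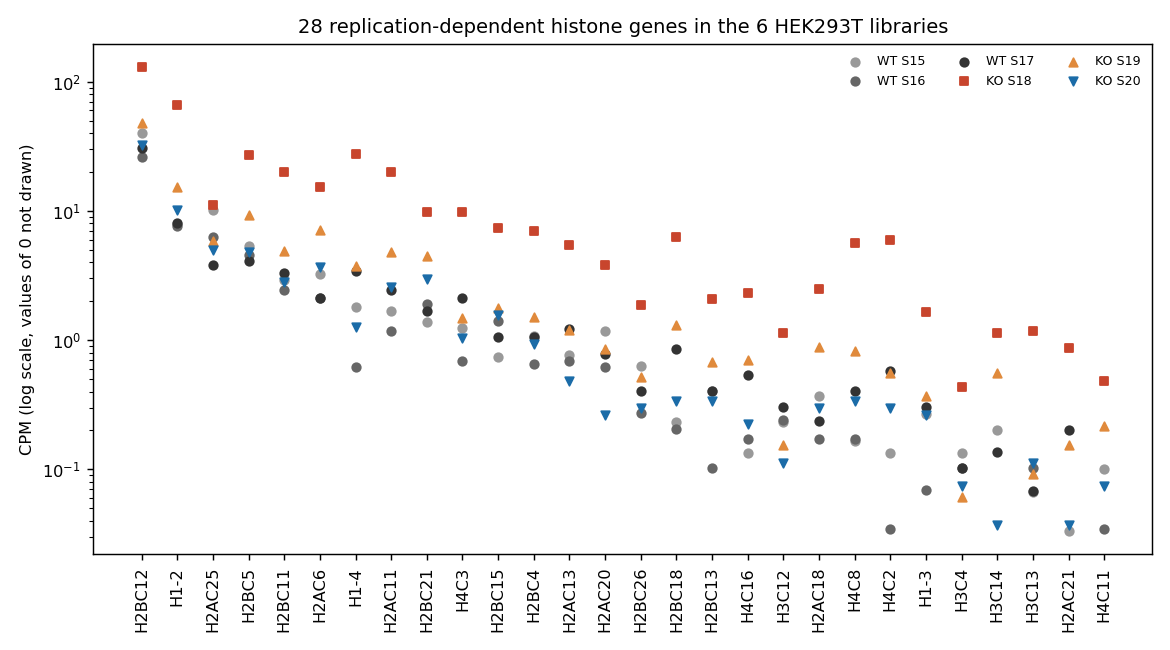
CPM (log scale) of the 28 replication-dependent genes tested in each of the 6 HEK293T libraries, ordered by the WT mean. KO S18 is the highest point for 28 of 28 genes, where it is the highest of the 6 libraries in 28.2% of all genes.

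Taken 1 library at a time, S18 was above all 3 WT libraries in 28 of 28 replication-dependent genes, S19 in 18 and S20 in 6, while S19 was below all 3 in 2 and S20 in 4. The matching shares of all genes are not given here, so whether these counts exceed the background was not tested. Without S18 the median log2 fold change of the 28 genes was 0.58 (range -0.94 to 1.62), with 21 above 0 (50.3% of all genes), 4 at an unadjusted p below 0.05 and a lowest adjusted p of 0.218 (edgeR). By chromosome, with S18, the median was 1.74 for the 18 genes tested on chromosome 6 and 2.06 for the 9 on chromosome 1, and without S18 it was 0.58 and 0.34.

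**Figure D3:**
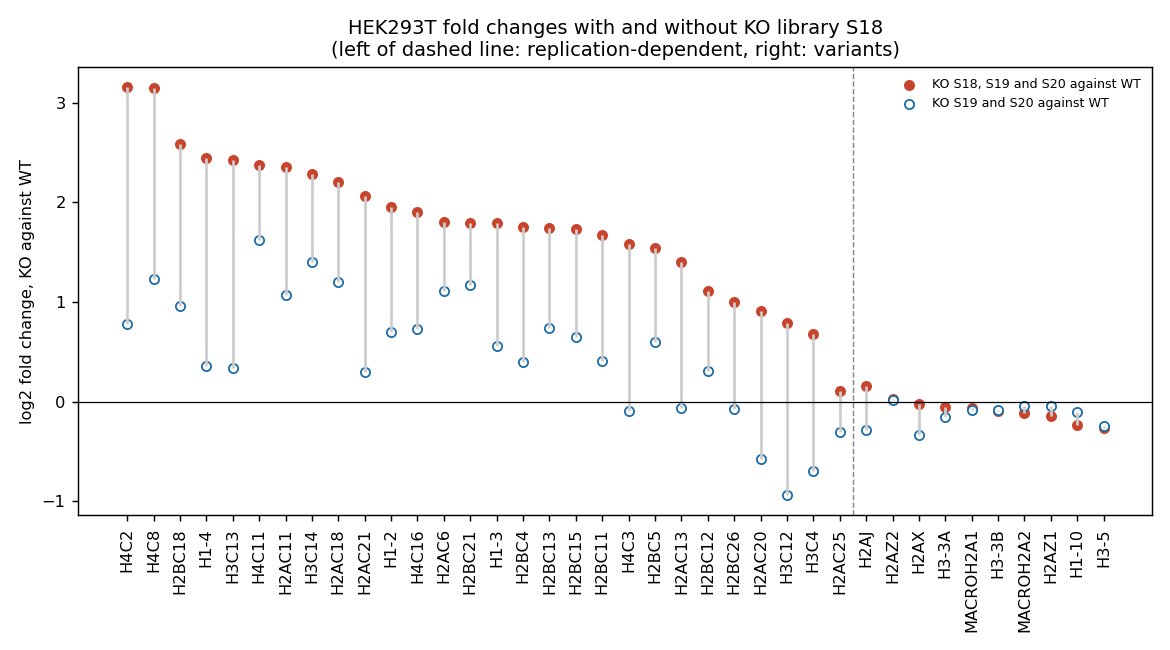
Log2 fold change of KO against WT HEK293T for 28 replication-dependent genes and 10 variants, with all 3 KO libraries (filled) and without S18 (open). The replication-dependent median goes from 1.79 to 0.58 and the variant median from -0.09 to -0.1.

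The 10 variants in HEK293T had log2 fold changes between -0.27 (H3-5) and 0.16 (H2AJ), with adjusted p from 0.812 to 0.991. Without S18 they ranged from -0.34 (H2AX) to 0.02 (H2AZ2), with a lowest adjusted p of 0.844. H2AZ2 was nearly flat, at 131 to 132 CPM in WT and 133 to 138 in KO. H3-3B had 860, 912 and 980 CPM in WT and 845, 834 and 886 in KO, which overlap.

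In KO NPCs, 4 of 31 histone genes tested (12.9%) were called lower than in WT and 0 higher. Of the 20577 genes tested 16.8% were called, 8.36% lower and 8.45% higher. The histone share called in either direction was thus not above the background. Of the 10 variants 3 were called lower (H1-10, H2AJ and MACROH2A2), and of the 21 replication-dependent genes 1 (H2AC25). Without the fold threshold 7 of 10 variants passed as lower, against 13.7% of all genes. The median log2 fold change was -0.73 for the variants, -0.44 for the replication-dependent genes and -0.02 over all genes.

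MACROH2A2, which encodes the large H2A variant macroH2A2, had 159 and 158 CPM in WT and 60.2 and 60.7 in KO NPCs. It fell by 1.39 on the log2 scale (SE 0.104, adjusted p = 0.000213, edgeR), to a level 2.62-fold lower. MACROH2A1 had 405 and 381 CPM in WT and 241 and 237 in KO and fell by 0.71 (SE 0.100, adjusted p = 0.00235), under the fold threshold. For both macroH2A genes the groups did not overlap.

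H1-10, the linker histone H1.10 or H1X, fell furthest among the 10 variants. It had 187 and 201 CPM in WT and 52.9 and 70.6 in KO NPCs, a decrease of 3.14-fold (log2 -1.65, SE 0.155, adjusted p = 0.000491). H1-10 has an annotated antisense gene, H1-10-AS1, and whether strand was used in counting is not given in the sources used here. H1-2, the replication-dependent linker histone with most reads, had 3.74 and 3.89 CPM in WT and 3.66 and 2.25 in KO (log2 -0.37, SE 0.353, adjusted p = 0.481).

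H2AJ, an H2A variant known to accumulate in senescent cells, had 22.6 and 17.4 CPM in WT and 6.77 and 9.68 in KO NPCs (log2 -1.28, SE 0.25, adjusted p = 0.00936). It did not pass without KO S1 (log2 -1.05, adjusted p = 0.0886). In this and every later fit that leaves out an NPC library, its group holds 1 library, which is assumed to vary like those of the other groups. H2AX had 134 and 155 CPM in WT and 71.9 and 95.8 in KO and fell by 0.78 (SE 0.160, adjusted p = 0.0111), under the fold threshold. In both genes the KO libraries lay below the WT libraries.

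H3.3 and H2A.Z are each made from a pair of dispersed genes. H3-3A had 318 and 304 CPM in WT and 188 and 181 in KO NPCs and fell by 0.75 on the log2 scale (SE 0.099, adjusted p = 0.0019). H3-3B had 518 and 498 CPM in WT and 579 and 574 in KO (log2 0.18, SE 0.096, adjusted p = 0.203). The difference between genes of a pair was not tested.
H2AZ2 had 204 and 190 CPM in WT and 150 and 141 in KO and fell by 0.44 (SE 0.104, adjusted p = 0.0200). H2AZ1 had 847 and 645 CPM in WT and 770 and 892 in KO, which overlap (log2 0.16, SE 0.152, adjusted p = 0.492). H3-5, which encodes H3.5, had 3.74 and 4.197 CPM in WT and 5.73 and 4.41 in KO (log2 0.35, SE 0.294, adjusted p = 0.418). H3-3B and H3-5 were the 2 variants with both KO libraries above both WT libraries, as 33.3% of all genes were.

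**Figure D4:**
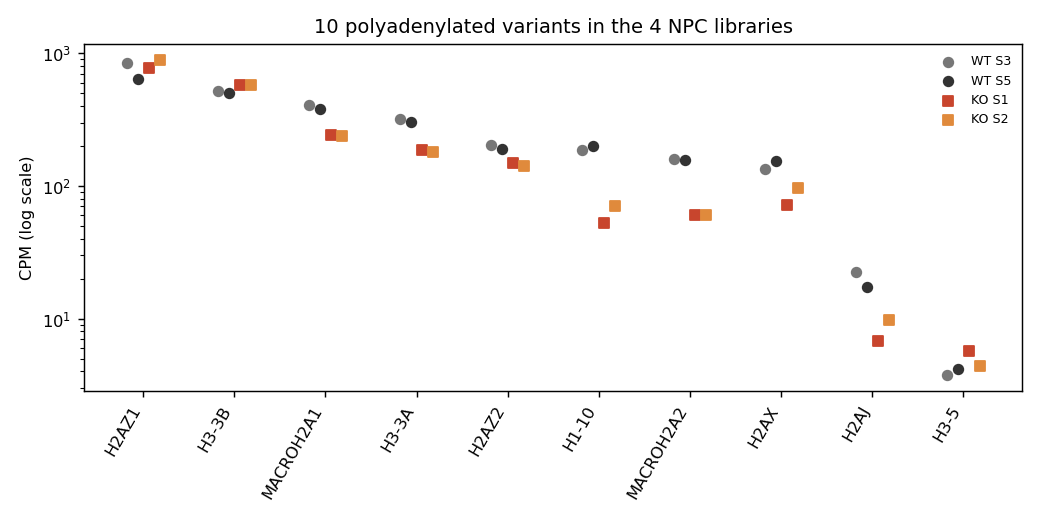
CPM (log scale) of the 10 polyadenylated variants in the 2 WT and 2 KO NPC libraries, ordered by the WT mean. In 7 of 10 genes both KO points lie below both WT points, as for MACROH2A2 at about 60 against about 158 CPM.

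Replication-dependent genes were at low levels in NPCs. H2AC25 was the single gene called, on 30 and 28 counts in WT and 8 and 3 in KO (log2 -2.42, SE 0.655, adjusted p = 0.0322). It did not pass without KO S1 (log2 -3.34) or without KO S2 (log2 -1.85). Both KO libraries lay below both WT libraries in 7 of 10 variants (70%), against 33.8% of all genes. In 8 of 21 replication-dependent genes (38.1%) KO lay wholly below WT, a share near that background. For the 16 genes above the floor in each group the median was -0.32.

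The 6 genes also polyadenylated summed to 21.4 and 29.2 CPM in WT and to 22.1 and 20.04 in KO NPCs, which overlap, and their log2 fold changes ran from -0.44 to -0.05. The other 15 summed to 8.95 and 12.3 CPM in WT and to 5.09 and 3.96 in KO. H2BC12 had 6.58 and 9.26 CPM in WT and 6.57 and 7.30 in KO, H2AC6 4.36 and 7.47 in WT and 4.396 and 4.32 in KO, H2BC5 3.55 and 3.84 in WT and 3.41 and 2.93 in KO, and H2BC21 2.70 and 4.15 in WT and 3.41 and 2.93 in KO. H2BC5 and H2BC21 had the same counts in the KO libraries, 69 and 65, but not in the WT libraries. H2BC4 had 10 and 11 counts in WT and 14 and 7 in KO. None of these 5 had an adjusted p below 0.374.

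Other lists moved with these values in the NPCs. The 12 mesenchymal markers summed to 2691 and 1729 CPM in WT and to 8250 and 6674 in KO, with 6 called higher and 0 lower. The pluripotency markers summed to 139 and 161 CPM in WT and to 70.4 and 65.1 in KO, which do not overlap, and of 4 tested LIN28A was called lower and ZFP42 higher. Of 12 neural progenitor markers 7 were called lower and 0 higher. Beside these marker counts, 8.36% of all genes tested were called lower and 8.45% higher. SOX2 had 219 to 227 CPM in WT and 12.7 to 21.1 in KO. The summed neural level was 9903 and 9650 CPM in WT and 10330 and 9627 in KO, which overlap, and NES did not fall. The S phase and cycle genes summed to 4909 and 5112 CPM in WT and to 3358 and 3606 in KO. The 11 RNAs without a poly(A) tail listed in the NPC table summed to 11.98 and 8.14 CPM in WT and to 7.21 and 5.54 in KO, which do not overlap, with a median log2 fold change of -0.79, 9 of 11 below 0 and 0 called (1 at an unadjusted p below 0.05 in edgeR). The part of cell composition, of cycling and of untailed RNA in the histone values was not tested, and in bulk RNA fewer cells of a type and less RNA per cell cannot be told apart.

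Among the 29 S phase and cycle genes tested in NPCs, 3 were called lower, against 8.36% of all genes, and 0 higher, and without the fold threshold 17 passed as lower, against 13.7% of all genes, and 1 (NPAT) as higher. PRIM1, the DNA primase subunit, had a log2 fold change of -1.34 (SE 0.140, adjusted p = 0.000752), E2F2 of -1.29 (SE 0.307, adjusted p = 0.0202) and the licensing factor CDT1 of -1.23 (SE 0.217, adjusted p = 0.00606). Of 20 histone chaperones 0 were called, with 7 lower and 0 higher at an adjusted p below 0.05, 8 at an unadjusted p below 0.05, where 40.3% of all genes had one, and a median of -0.26. Of 14 genes of histone mRNA 3' processing 0 were called, with 2 higher and 2 lower at an adjusted p below 0.05 and 5 at an unadjusted p below 0.05, not above the share of all genes. SLBP rose by 0.59 (SE 0.169, adjusted p = 0.0402) and NPAT by 0.59 (SE 0.160, adjusted p = 0.0314), both under the fold threshold. In HEK293T SLBP had a log2 fold change of 0.12 (adjusted p = 0.891) and NPAT of 0.15 (adjusted p = 0.873), and of 0.05 and 0.06 without S18.

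Whether the KO effect differed between NPCs and HEK293T was tested as an interaction over all 10 libraries, for the 31 histone genes in both tables. Of these, 4 (12.9%) were called lower in NPCs relative to HEK293T and 0 higher. Of the 19255 genes tested 12.2% were called, 6.22% lower and 6.01% higher. The histone share called in either direction was thus near the background. MACROH2A2 differed by -1.26 on the log2 scale (SE 0.181, adjusted p = 0.000761) and H1-10 by -1.39 (SE 0.257, adjusted p = 0.0037). Both variants were also called in a fit without S18, and their HEK293T log2 fold changes without S18 were -0.04 and -0.11. MACROH2A1 (-0.62, SE 0.153, adjusted p = 0.0169) and H3-3A (-0.68, SE 0.187, adjusted p = 0.0281) passed without the fold threshold, making 6 of 31, against 7.34% of all genes. H3-3B (0.30, SE 0.153) and H2AZ1 (0.33, SE 0.233) had adjusted p of 0.213 and 0.389.

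The other 2 genes called were replication-dependent. H2AC11 had 50, 34 and 72 counts in WT and 457, 157 and 69 in KO HEK293T, and 41 and 85 in WT and 27 and 22 in KO NPCs, with an interaction of -3.78 (SE 1.05, adjusted p = 0.0296). Without S18 it passed (-2.49, adjusted p = 0.0248). It did not pass with voom and limma (-3.12, adjusted p = 0.126), nor in edgeR without WT HEK293T S15 (-3.74, adjusted p = 0.0578) or S16 (-3.56, adjusted p = 0.068). It also did not pass without WT NPC S5 (-3.11), KO NPC S1 (-3.99) or KO NPC S2 (-3.58). H4C11 had 3, 1 and 0 counts in WT and 11, 7 and 2 in KO HEK293T (log2 fold change 2.38, and 1.62 without S18), and 6 and 16 in WT and 1 and 2 in KO NPCs. Its adjusted p was 0.0387. It did not pass without WT HEK293T S16 or S17, KO HEK293T S18 or S19, WT NPC S5, KO NPC S1 or KO NPC S2 (adjusted p = 0.0531 to 0.14), DESeq2 gave it no adjusted p, and 91.4% of its 75-base windows are shared with other genes. In the NPCs the pooled KO to WT ratio of H4C11 counts was 0.131 (95% exact counting interval 0.025 to 0.435).

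**Figure D5:**
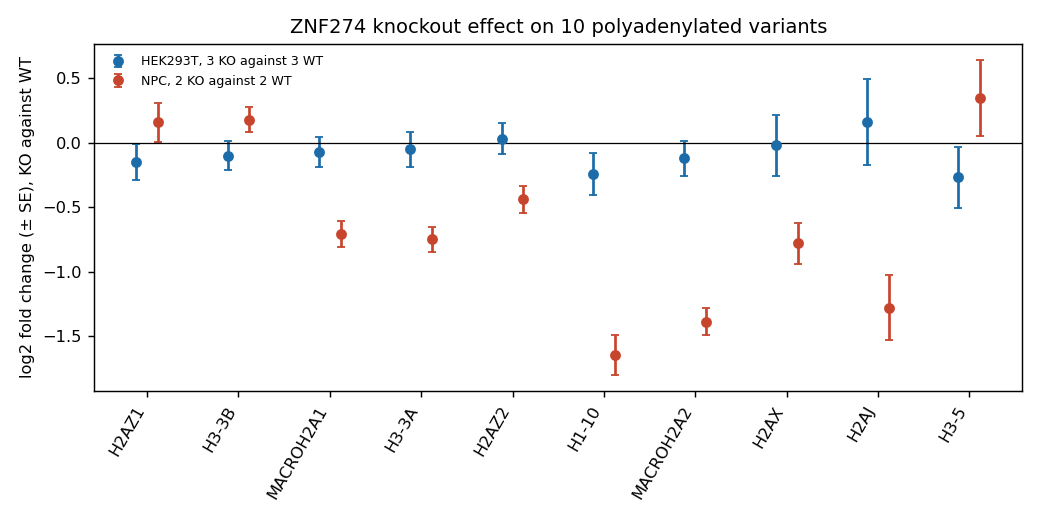
Log2 fold change (± SE) of KO against WT for the 10 polyadenylated variants in HEK293T (3 against 3 libraries) and NPCs (2 against 2), ordered as by WT NPC level. H1-10 is at -0.24 in HEK293T and -1.65 in NPCs, whereas H3-3B and H2AZ1 lie near 0 in both.

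WT NPCs were also compared with WT HEK293T, where cell type, table and preparation cannot be told apart. Of 31 histone genes, 4 were called higher in NPCs and 4 lower, where 25.2% and 15.5% of all genes were called higher and lower, so the histone shares of 12.9% and 12.9% were not above the background. The variant H2AJ was higher (log2 1.30, SE 0.355, adjusted p = 0.00735) but did not pass without WT NPC S3 (1.10, adjusted p = 0.0595). Without the fold threshold 6 genes were higher and 5 lower, against 31.4% and 25.4% of all genes. Among those added, MACROH2A2 (0.92, SE 0.126, adjusted p = 5.23e-05) and H2AZ2 (0.59, SE 0.111, adjusted p = 0.000656) were higher and H3-3B (-0.84, SE 0.111, adjusted p = 3.75e-05) lower.

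Among replication-dependent genes, H2BC12, with the shared windows given above, was 4.04-fold lower in WT NPCs (log2 -2.02, SE 0.486, adjusted p = 0.00348) and H2AC25 4.69-fold lower (log2 -2.23, SE 0.510, adjusted p = 0.00247). H2AC6 was higher (1.25, SE 0.487, adjusted p = 0.0436) but did not pass with voom and limma (adjusted p = 0.0852), without WT HEK293T S16 or S17, KO HEK293T S19 or either KO NPC library (0.051 to 0.115), or without WT NPC S5 (0.81, adjusted p = 0.294). The remaining calls rest on few counts. H4C3 had 37, 20 and 63 counts in WT HEK293T and 2 and 0 in WT NPCs, a pooled ratio 27.4-fold lower (95% exact counting interval 7.42 to 229), but it did not pass with voom and limma or without either WT NPC library (adjusted p = 0.0525 to 0.11). H1-4 had 54, 18 and 102 against 2 and 2 counts, 19.9-fold lower (7.62 to 73.7), and did not pass with voom and limma, without WT HEK293T S15 or S17, or without either WT NPC library (adjusted p = 0.0502 to 0.191). H4C11, with 3, 1 and 0 against 6 and 16 counts, had a ratio of pooled counts of 12 (4.09 to 48.1) and did not pass without WT NPC S5 (adjusted p = 0.131). H1-5 had 0 counts in all 6 HEK293T libraries and 11 and 3 in WT NPCs, of which the lower is at the floor of 3 counts, and no fold is given against a group at 0. The 11 RNAs without a poly(A) tail tested in this comparison had a median log2 difference of -2.13, with 10 of 11 below 0 and 2 called lower, and their part in these values was not tested. SLBP was lower in WT NPCs (log2 -1.33, SE 0.162, adjusted p = 2.07e-05).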

How the data were processed

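Gene counts were used as deposited by the authors, who per the labels prepared Illumina TruSeq stranded mRNA libraries and per their processing notes aligned reads with HISAT2 to hg19, with its setting for reverse-stranded pairs where data were stranded, and counted uniquely mapped reads with featureCounts (versions and the strand setting of the counting are not given in the sources used here). Identifiers were paired with symbols through GENCODE v44lift37. Counts of each cell type were fitted separately with edgeR 4.0.16 in R 4.3.3 (TMM, total count of at least 6 in HEK293T or 4 in NPCs, quasi-likelihood test, Benjamini-Hochberg over all genes tested), and in 1 fit of 10 libraries for the interaction and the WT comparison. Genes were called at an adjusted p below 0.05 and a fold change above 2. Alternatives used DESeq2 1.42.0, limma 3.58.1, other scalings and filters, and each library left out. The scripts were tested on simulated data. Replicate names were not shared between groups, so no pairing was used. The members and lists were chosen with earlier results of these data known. Of the genes that meet the rule, 1 is not reported here. Named genes were all variants reported, genes also polyadenylated, called genes, the 2 most abundant replication-dependent genes per class, and SLBP, NPAT and called genes of the pathway lists. H4C8, H2BC15, RN7SK, SOX2, NES, LIN28A and ZFP42 were named after their values were seen.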

Additional observations from a re-analysis of the deposited data

Results flagged for a closer look

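The KO effect differed between NPCs and HEK293T by the interaction test (edgeR, adjusted p below 0.05) in 6 of 31 histone genes, where 7.34% of all genes differed with the same sign. The values are on the log2 scale, NPC minus HEK293T, and those of MACROH2A1 and H3-3A lie under the fold threshold. The differences were -1.26 for MACROH2A2, -1.39 for H1-10, -0.62 for MACROH2A1, -0.68 for H3-3A, -3.78 for H2AC11 and -5.21 for H4C11. For the last 2, KO HEK293T S18 was the highest of the 6 HEK293T libraries, and the fitted value of H4C11 rests on at most 16 counts in any library, so its size is not a bound. H2AC11 lost its adjusted p below 0.05 in 6 and H4C11 in 7 of the alternative fits, and H4C11 had none in DESeq2. No group held 4 or more libraries, so single libraries were not tested as outliers.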

How the results depend on the processing

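In HEK293T, where 0 histone genes were called and 0.489% of all genes, DESeq2 called 3 (0.862% of all genes), and the fits that left out 1 library called 0 to 3 (3 without KO S20, with 0.610% of all genes, and 0 without KO S18). In NPCs, where 4 were called lower and 16.8% of all genes in either direction, 8 were without the fold threshold (28.6%) and 2 to 6 when 1 library was left out (2 without KO S1, with 10.2%, and 6 without WT S3, with 19.3%). For the difference between the KO effects, also 4 with 12.2% of all genes, DESeq2 gave 8 (14.4%), library size alone 7 (13.2%), and leaving out 1 library 2 to 11, with 2 without WT HEK293T S16, WT NPC S5, KO NPC S1 or KO NPC S2 (7.58 to 10.6% of all genes) and 11 without KO HEK293T S20 (11.4%). The WT comparison, with 8 and 40.7% of all genes, gave 5 with voom and limma (41.2%). It gave 6 to 12 when 1 HEK293T library was left out, with 6 without WT HEK293T S17 (38.2%) and 12 without KO HEK293T S18 (41.1%). S18 enters that comparison through the filter, the estimate of the spread and the scaling. Fewer histone genes than in the main fit were called without WT NPC S3 or WT NPC S5. Fits without an NPC library rest on 1 library in its group. Library size alone moved the median log2 fold change of all genes by over 0.1 in the NPCs and the interaction, to -0.13 and -0.24. The other planned settings kept the counts within 1.5 times of the main value and no called gene changed direction. Of 1626 values of uncalled genes, 39 changed sign.

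The replication-dependent share per kb was 10.5% in WT HEK293T, 23.5% in KO HEK293T, 5.63% in WT NPCs and 4.72% in KO NPCs. It covered 29 replication-dependent genes in HEK293T and 21 in NPCs. With only the genes listed for both cell types it was 10.3%, 22.8%, 5.63% and 4.72%. Without the genes also polyadenylated it was 2.49%, 8.56%, 1.97% and 0.923%, and as a share of raw counts 2.23%, 6.19%, 1.34% and 1.16%, in that order. Leaving out 1 library gave 9.56 to 11.5%, 14.1 to 29.5% (14.1% without S18), 4.62 to 6.65% and 4.29 to 5.16%. The cause of these shifts was not tested. The median over replication-dependent genes above the floor, chosen after seeing the data, was 1.77 in HEK293T and -0.32 in NPCs, and precision in NPCs is limited by 533 to 811 replication-dependent counts per library. No paired analysis was possible because groups share no replicate numbers.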
